A study of Drosophila melanogaster with 29 samples.

Results

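The 35 genes described here are named genes of the fourth chromosome of *Drosophila melanogaster*, chosen by symbol from a fixed list. The list was set with earlier results of these data known. All 35 had a row among the 7602 genes of the deposited table of nuclear RNA. *Thd1* was found under its current symbol *Tdg* and is called *Thd1* here. The annotation of Release 6 placed all of them on chromosome 4, where the table holds 41 further genes. RNA was sequenced from photoreceptor nuclei in 3 replicate libraries of 1 group, male flies 10 days after eclosion. The flies were *w* and carried on the third chromosome the transgenes UAS-GFP-Msp300KASH, inserted at attP2, and rh1-GAL4, with the *ry*[506] allele. The rh1 driver follows the promoter of the major rhodopsin gene, so the tag that was used to isolate nuclei marks outer photoreceptors. The series has 29 samples in 9 groups, and the 26 samples of chromatin assays were not analysed here, so the values below are RNA levels and not histone marks.

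The fourth chromosome, also called the dot or Muller F element, is the smallest autosome of the fly and is largely packaged as heterochromatin. Its gene-bearing arm is interspersed with repeats and carries HP1a and methylated histone H3 lysine 9, yet many of its genes are transcribed. The protein encoded by *Pof* binds this chromosome and nascent RNA of its genes, and the methyltransferase encoded by *egg* acts there in place of the enzyme that serves pericentric heterochromatin.

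Over all genes of the table the libraries had 3781302, 3051440 and 3769863 reads, and 1 read was worth 1.29, 1.49 and 1.32 normalized counts in replicates 1, 2 and 3. A normalized count is a read number scaled by the size factor of the library, which puts libraries on one scale. Photoreceptor markers were high in these libraries, with all 8 of 8 among the top 10% of genes and 5.61% ± 0.11 of normalized counts (SD, n = 3). Markers of glia, muscle, other neurons, and cone and pigment cells held 0.0109% or less each, and those of the fat body, *apolpp* included, held 0.117%.

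Most of the named genes were abundant in photoreceptor nuclear RNA. Their median level was 698 normalized counts, against 56.8 for all genes of the table. Of the 35 genes, 32 lay above the table median (background 50%, by construction), and 15 were in the top 10% of genes (background 10%). *ci*, *sv* and *yellow-h* were the 3 below it. On the log2(normalized count + 1) scale the median of the 35 genes exceeded the table median by 3.50, 3.30 and 3.87 in replicates 1, 2 and 3, or 3.56 ± 0.29 (SD, n = 3). Together they held 1.36% ± 0.11 of normalized counts, while making up 0.460% of the genes of the table. The filter that chose the genes of the table was not given in the sources used here, so its median is not that of the whole genome.

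**Figure D1:**
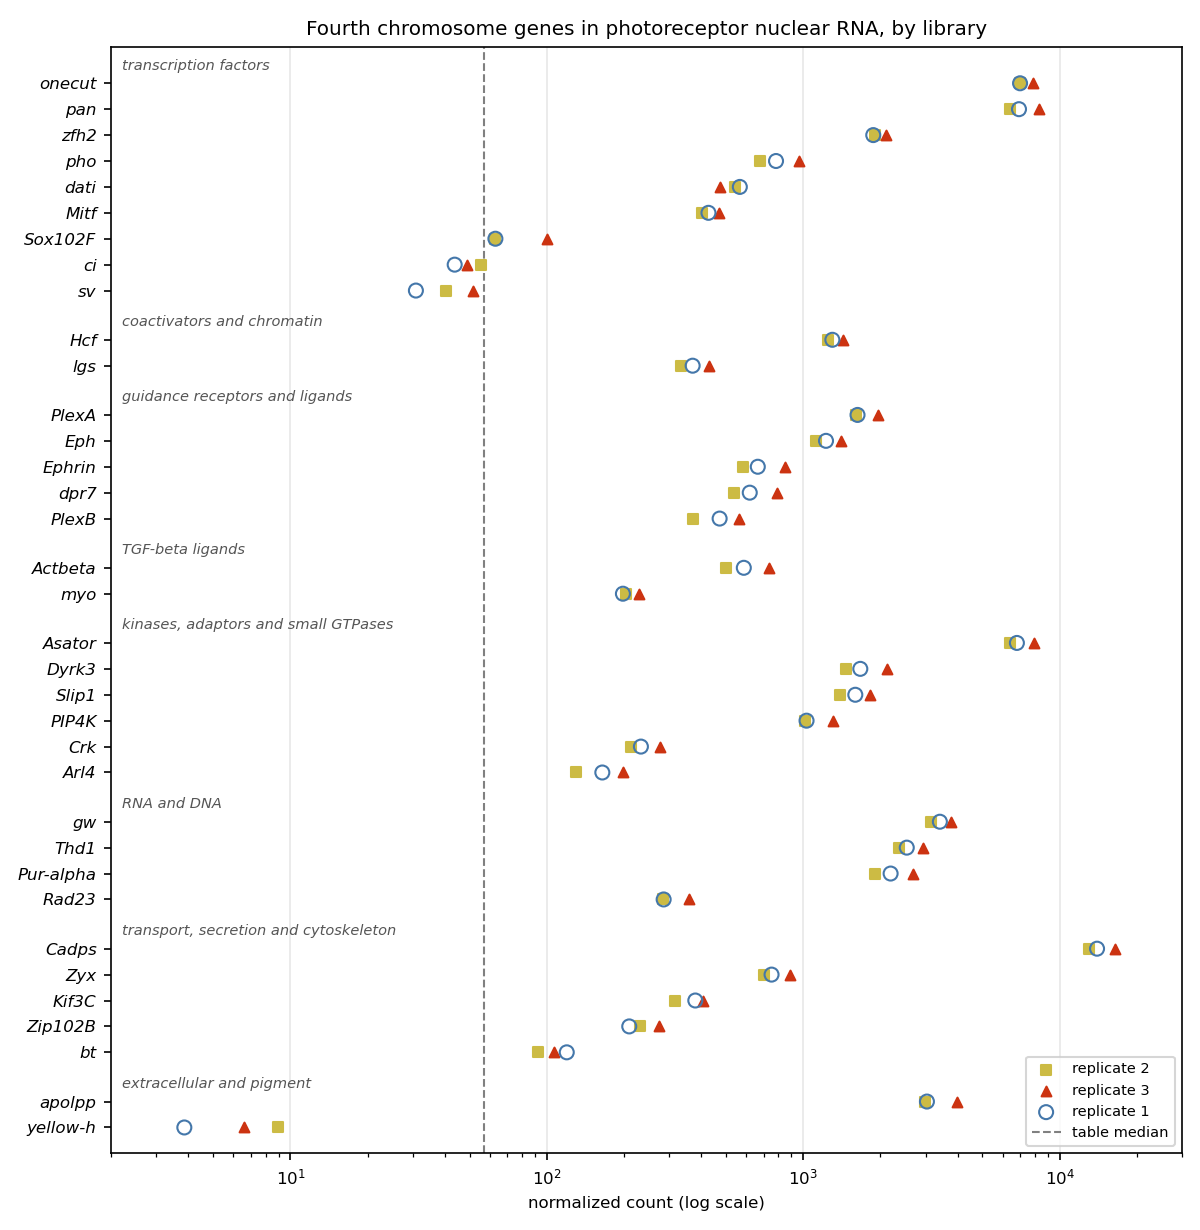
Normalized count of each of the 35 genes (x axis, log scale) in replicates 1, 2 and 3 (symbols), grouped by role, with the table median of 56.8 as a dashed line. 32 of the 35 genes have a mean to the right of the line, and the triangle of replicate 3 is the highest symbol for 31 of the 35.

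The transcription factors ran from very high to near the lower end of what these libraries can measure. *onecut* (FBgn0028996; chromosome 4, 598555 to 607649), which encodes a CUT-homeodomain factor of neurons, had 7007, 7009 and 7862 normalized counts in replicates 1, 2 and 3. *pan* (FBgn0085432; chromosome 4, 69326 to 114270), the TCF factor through which Wnt signals reach target genes, had 6942, 6410.5 and 8325. For both genes the value of replicate 3 stood above the other libraries, which were nearly equal for *onecut* and differed for *pan*. *zfh2*, a zinc finger and homeodomain factor, had 1875, 1904 and 2106 normalized counts, and *pho*, which recruits Polycomb complexes to DNA, had 783, 678 and 966. *dati*, a zinc finger factor, had 566, 542 and 473, and was the only one of the 35 genes with its lowest value in replicate 3. *Mitf*, a regulator of lysosomal genes, had 427, 402 and 468.

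The other 3 factors were low, at 5.28 or fewer normalized counts per kilobase of gene span. *Sox102F*, a Sox family factor, had 63.0, 62.7 and 100.5 normalized counts, which puts it close to the table median. *ci*, the effector of Hedgehog signalling, had 43.7, 55.3 and 48.9. *sv*, the fly Pax2 gene, which acts in cone cells and bristles, had 30.9, 40.3 and 51.6. These genes rest on 24 to 76 reads per library. Of the factor partners, *Hcf*, a cofactor found in chromatin complexes, had 1299, 1252 and 1432 normalized counts. *lgs*, the adaptor that joins Armadillo to Pygopus in Wnt signalling, had 370.4, 333 and 429.6.

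All 5 genes of cell surface guidance and adhesion were above the table median. *PlexA*, a receptor for transmembrane semaphorins, had 1628, 1613 and 1954 normalized counts. *PlexB*, a receptor for secreted semaphorins, had 472, 372 and 563, and its highest library was 1.51 times its lowest. *Eph*, the single Eph receptor tyrosine kinase of the fly, had 1227, 1120.2 and 1407. Its ligand *Ephrin* had 665, 584 and 846. *dpr7*, an immunoglobulin family surface protein, had 619, 538 and 789. Replicate 3 was the highest and replicate 2 the lowest library for all 5 genes. Among ligands of the TGF-beta family, *Actbeta*, which encodes an activin, had 587, 502 and 732 normalized counts, and *myo*, which encodes myoglianin, had 198, 203 and 229.

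Kinases, adaptors and a small GTPase formed a mostly high group, with 4 of 6 genes in the top 10%. *Asator* (FBgn0039908; chromosome 4, 469409 to 488994), a kinase of the tau-tubulin kinase family, had 6812, 6406 and 7913 normalized counts. *Dyrk3*, a dual-specificity kinase, had 1669.5, 1467 and 2119. *Slip1*, named for its binding to the Slowpoke potassium channel, had 1596, 1395 and 1826. *PIP4K*, a phosphoinositide kinase, had 1030.3, 1020.1 and 1303. *Crk*, an adaptor with SH2 and SH3 domains, had 233, 214 and 276, and *Arl4*, an Arf-like GTPase, had 164.6, 129.9 and 198.

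Genes acting on RNA and DNA were also abundant. *gw*, the partner of Argonaute in microRNA silencing, had 3411, 3150.0 and 3785 normalized counts. *Thd1*, a DNA glycosylase of base excision repair, had 2534, 2361 and 2932, and *Pur-alpha*, a nucleic acid binding protein, had 2192, 1907 and 2684. *Rad23*, which links DNA repair and the proteasome, had 285.5, 284 and 359.6. The span of *Thd1* overlaps that of *zfh2* in the annotation. In all, 12 of the 35 spans overlap another annotated gene, and 8 overlap a protein-coding one. The strand setting of the counting is not given in the sources used here, so reads of such neighbours may not have been separated.

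*Cadps* (FBgn0053653; chromosome 4, 1230837 to 1271759), which encodes a factor that primes dense core vesicles for release, had 13990.3, 13000.2 and 16423 normalized counts. These were 14471 ± 1761 (SD, n = 3), at percentile 99.4 of the table. Other genes of transport and the cytoskeleton were below it per kilobase of gene span, at 102 or less against 354. *Zyx*, the LIM domain protein zyxin, had 752, 702 and 888 normalized counts, *Kif3C*, a kinesin, had 379, 315 and 407, and the zinc transporter gene *Zip102B* had 209.7, 231.5 and 275.

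Among the named genes, a few are best known from other cells. *bt* encodes projectin, a giant protein of muscle, and had 119.6, 92.6 and 107.1 normalized counts over a span of 52.1 kb. In the same libraries 6 of 8 listed muscle genes had a row, none was at 0, and their sum was 457 to 468 normalized counts. *apolpp*, the precursor of the main lipoprotein made by the fat body, had 3037, 2974 and 3962 normalized counts, at percentile 96.8. The 6 other fat body genes, of 7 listed, summed to 2115 to 2530.1, most of it from *FASN1*, a fatty acid synthase gene, at 1885 ± 196 (SD, n = 3). The storage protein gene *Lsp2* stood at 10.8 ± 2.2 and the hormone receptor gene *AkhR* at 14.2 ± 3.7, none of them at 0. The part of fat body RNA in the *apolpp* value was not tested. For *sv*, the 4 other cone and pigment cell markers summed to 216 to 245 normalized counts, most of it from *ct*, a homeobox gene, at 189.8 ± 18.9. *yellow-h*, of the yellow family, had 3, 6 and 5 reads.

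Levels of different genes were then compared per kilobase of gene span, since genes of the fourth chromosome are long. The span from first to last annotated base had a median of 9.33 kb for the 35 genes, from 2.04 kb for *Arl4* to 52.1 kb for *bt*, against 3.48 kb over the table. Per kilobase the median of the 35 genes was 85.0 normalized counts, against 19.6 for the 7553 table genes with a span. 28 of 35 genes lay above the table median (background 50%) and 12 in the top 10% (background 10%). The median exceeded that of the table by 2.09 ± 0.23 on the log2(normalized count per kilobase + 1) scale (SD, n = 3). Whether reads in introns were counted is not given in the sources used here, and exon lengths were not used here.

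*onecut* was first at 802 ± 54 normalized counts per kilobase (SD, n = 3), and its lowest library lay above every library of the next gene. *Asator* followed at 360 ± 40, *Cadps* at 354 ± 43, *Dyrk3* at 311 ± 59 and *gw* at 298 ± 28. *Slip1*, *PIP4K* and *Pur-alpha* lay between 245 and 256. From *Asator* to *Pur-alpha* each gene overlapped the next in its range over libraries. Within libraries, *Asator* lay above *Cadps*, *Cadps* above *Dyrk3* and *gw* above *Slip1* in all 3, while the other neighbours in that stretch changed places. *pan*, long at 44.9 kb, stood at 161 ± 22. At the low end *ci* had 5.28 ± 0.62, *yellow-h* 2.58 ± 1.02, *Sox102F* 2.22 ± 0.64, *bt* 2.04 ± 0.26 and *sv* 1.67 ± 0.42 normalized counts per kilobase. In the whole order, 6 of the 34 steps from one gene to the next had ranges that did not overlap, and 16 kept their order in every library. The largest of these steps was between *Kif3C*, at 16.9 ± 2.2, and *ci*.

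**Figure D2:**
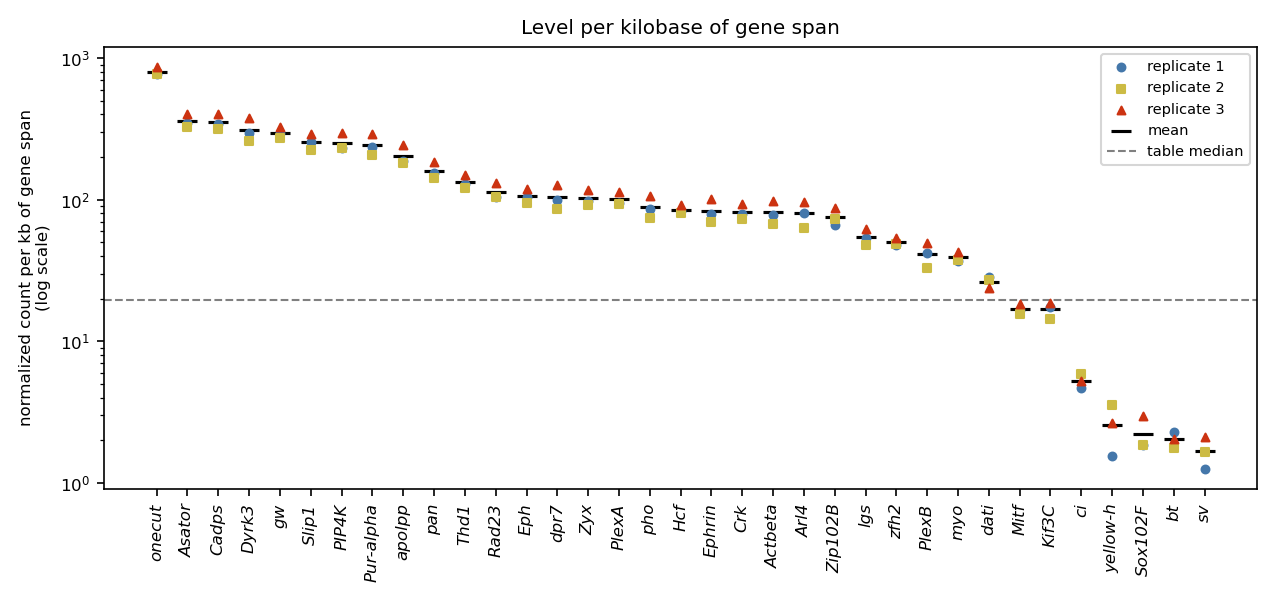
Normalized count per kilobase of gene span (y axis, log scale) for the 35 genes in order of their mean (bar), with replicates 1, 2 and 3 as symbols and the table median of 19.6 as a dashed line. *onecut* stands apart at 802, a long shelf of genes lies between 39.1 and 360, and *ci*, *yellow-h*, *Sox102F*, *bt* and *sv* lie between 1.67 and 5.28.

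Related genes differed in level within every library. The log2 ratio of *PlexA* to *PlexB* per kilobase was 1.18, 1.51 and 1.19 in replicates 1, 2 and 3, a mean of 1.29 ± 0.19 (SD, n = 3). *Eph* exceeded *Ephrin* by 0.39, 0.45 and 0.24, or 0.36 ± 0.11. *Actbeta* exceeded *myo* by 1.09, 0.83 and 1.20, or 1.04 ± 0.19. For the Wnt pair, *pan* exceeded *lgs* by 1.54, 1.57 and 1.58, or 1.56 ± 0.03, the steadiest of the 4 ratios. Each ratio kept its sign in 3 of 3 libraries, and no test was run on it.

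The rest of the chromosome had similar levels. The 41 other genes of chromosome 4 had a median of 619 normalized counts, and 31 of them lay above the table median. The 5 with the most normalized counts were *unc-13*, *CaMKI*, *PMCA*, *CG11155* and *CaMKII*. Per kilobase of gene span, *CaMKI*, a calcium-dependent kinase, had 1393 ± 141 normalized counts and *unc-13*, a vesicle priming factor, 1199 ± 135 (SD, n = 3). *CG11155* had 683 ± 89, *PMCA*, a calcium pump, 360 ± 45, and *CaMKII*, a kinase of synaptic plasticity, 338 ± 47. Of the 80 protein-coding genes annotated on the chromosome 76 had a row, or 95.0%. On the other arms the share ran from 50.2% on 2L to 59.3% on X. The median log2(normalized count + 1) of genes of chromosome 4 was 9.37 ± 0.22, and that of the other arms lay between 5.77 and 6.02.

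Genes of the chromosome are also longer than those of other arms, with a median span of 10.5 kb against 3.33 to 3.87 kb. Per kilobase their median was 82.7 normalized counts, against 18.7 to 20.6. Within classes of equal span the order was the same. Among genes of 5 to 10 kb, 21 on the fourth chromosome had a median of 102 normalized counts per kilobase and 1170 on other arms had 29.7. Among genes of 20 kb or more, 13 had 50.2 and 908 on other arms had 6.57. These are medians over genes, which are not replicates, and the difference between chromosomes was not tested.

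**Figure D3:**
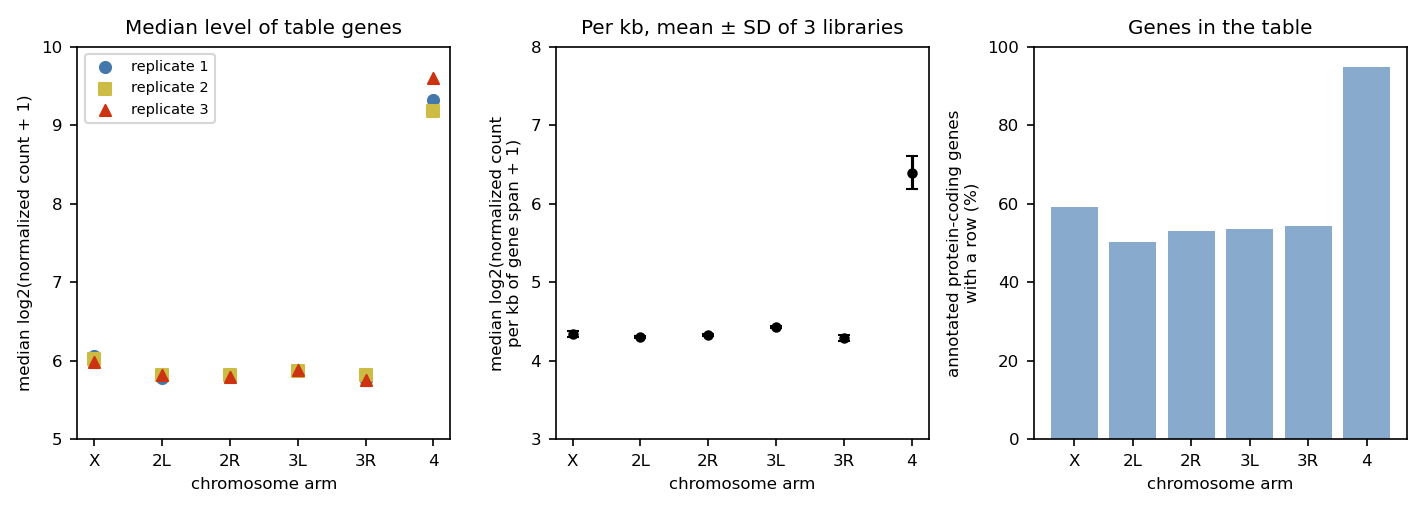
Values by chromosome arm: the median log2(normalized count + 1) of the table genes in each library (left), the median per kilobase of gene span as mean ± SD of 3 libraries (middle), and the share of annotated protein-coding genes that have a row (right). The fourth chromosome stands at 9.37, above the other arms at 5.77 to 6.02, and at 95.0% of genes with a row.

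The 3 libraries were then compared with each other gene by gene. Reads recovered from the table were set against the library size factors in a chi-square test, which asks whether libraries differ by more than counting error. P-values were adjusted by Benjamini-Hochberg over the 6903 genes whose mean reached 10 normalized counts. The test called 20 of the 34 named genes that were tested, against a background of 9.76% of all genes, and *yellow-h* was too low to test. Calls became more frequent with level. At means of 200 to 1000, 6 of 14 named genes and 13.6% of genes on other arms were called. From 1000 to 10000 these were 13 of 14 and 40.2%, and above 10000 they were 1 of 1 and 94.6%. In all 20 called named genes, replicate 3 was the highest library, as it was in calls for 6.07% of all tested genes. Calls with replicate 3 lowest were made for 2.38% of all tested genes and for none of the named ones, of which *dati* alone was lowest there (unadjusted chi-square p 0.0355). With libraries scaled to equal totals, 18 named genes were called, and 1 of them was *dati*, with replicate 3 lowest (adjusted chi-square p 0.0378). Replicate 3 was the highest for 31 of the 35 genes (background 37.5% over all levels) and replicate 2 the lowest for 27 (background 38.9% over all levels). Among genes whose mean reached 200, replicate 2 also lay below replicate 1 on every arm. The median log2 of replicate 2 over replicate 1 was −0.10 on chromosome 4 and −0.08 to −0.04 on the other arms. Without replicate 3 the test called 3 named genes, *Cadps*, *pan* and *Pur-alpha*, with replicate 1 above replicate 2 and a background of 3.52% over all levels. P-values here measure the spread between these libraries, which may be technical, since the labels do not say how they relate to separate groups of flies.

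Replicate 3 was divided by the average of the other libraries, and the log2 of this quotient, below called the replicate 3 ratio, had a median of 0.29 over the 35 genes, a 1.22-fold higher level, against 0.01 over all genes of the table. The middle part of the genes, from the lower to the upper quartile, lay between 0.20 and 0.40. Among the 29 named genes whose mean reached 200 normalized counts, replicate 3 was highest for 28 (background 47.1% of table genes at that level), with ratios from 0.16 for *zfh2* to 0.45 for *dpr7*. The one exception was *dati* at −0.23, which did not pass the test with the deposited scaling (adjusted p 0.196). With libraries scaled to equal totals the median was 0.21 against −0.07 over the table. Such scaling moves the ratios of all genes by nearly the same amount, so the distance from the table median had to stay nearly the same.

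Single genes show the pattern. The p-values given with them are from the chi-square test over all 3 libraries and do not test replicate 3 alone. *Cadps*, *pan* and *Pur-alpha* also differed between replicates 1 and 2, as given above. *Cadps* was 0.28 higher in replicate 3 on the log2 scale (adjusted p 1.69e-65), and *pan* 0.32 higher (adjusted p 7.75e-41). *apolpp* was 0.40 higher (adjusted p 4.41e-28), *Pur-alpha* 0.39 (adjusted p 6.44e-20) and *Dyrk3* 0.43 (adjusted p 1.24e-18). All 5 guidance and adhesion genes were called (background 9.76% over all levels, and more at high levels). Of these, *Ephrin* was 0.44 higher (chi-square adjusted p 3.29e-07) and *PlexB* 0.42 (adjusted p 2.96e-05). Of 9 transcription factors 4 were called (background 9.76% over all levels, and more at high levels), *onecut*, *pan*, *zfh2* and *pho*. *zfh2* was the weakest of these, at 0.16 (adjusted p 0.0289). *Hcf*, at 0.17 (adjusted p 0.0760), *lgs*, at 0.29 (adjusted p 0.0914), and *Rad23*, at 0.34 (adjusted p 0.0917), did not pass.

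**Figure D4:**
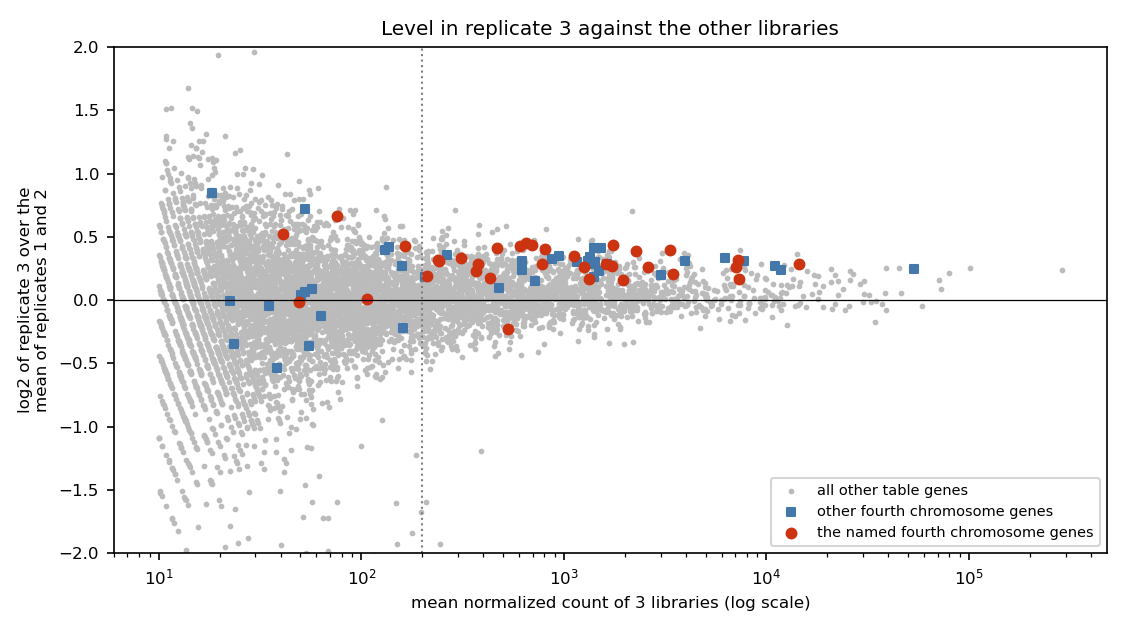
Log2 of replicate 3 over the average of the other libraries (y axis) against mean normalized count (x axis, log scale) for the 6903 tested genes, of which 28 fall outside the plotted range. Right of the dotted line at 200, the named genes (circles) and the other genes of chromosome 4 (squares) lie in a band around 0.29, except *dati* at −0.23.

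Among genes whose mean reached 200, the band held along the whole chromosome. All 25 other genes of chromosome 4 whose mean reached 200 were also highest in replicate 3, with a median of 0.30 and a range of 0.09 to 0.41. Split by order from the centromere side into 3 sets of 18 genes, the 54 genes of both kinds had medians of 0.30, 0.26 and 0.30. At the same level the medians of the other arms lay between 0.01 on X and 0.06 on 2L, and replicate 3 was the highest library for 33.4% to 51.9% of their genes, against 98.1% on the fourth chromosome. Within the class of 1000 to 10000 mean normalized counts, 27 of 28 genes of chromosome 4 and 247 of 614 genes of other arms were called. Below a mean of 200, replicate 3 was highest for 10 of 22 genes of chromosome 4, with a median of 0.04. At means of 50 to 200 the median was 0.09 for 13 genes, with replicate 3 highest for 61.5% against 33.9% on other arms. At means of 10 to 50 it was −0.02 for 7 genes, with 28.6% against 33.3%. Counting error is larger at these levels, and its part in the lower medians was not tested.

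**Figure D5:**
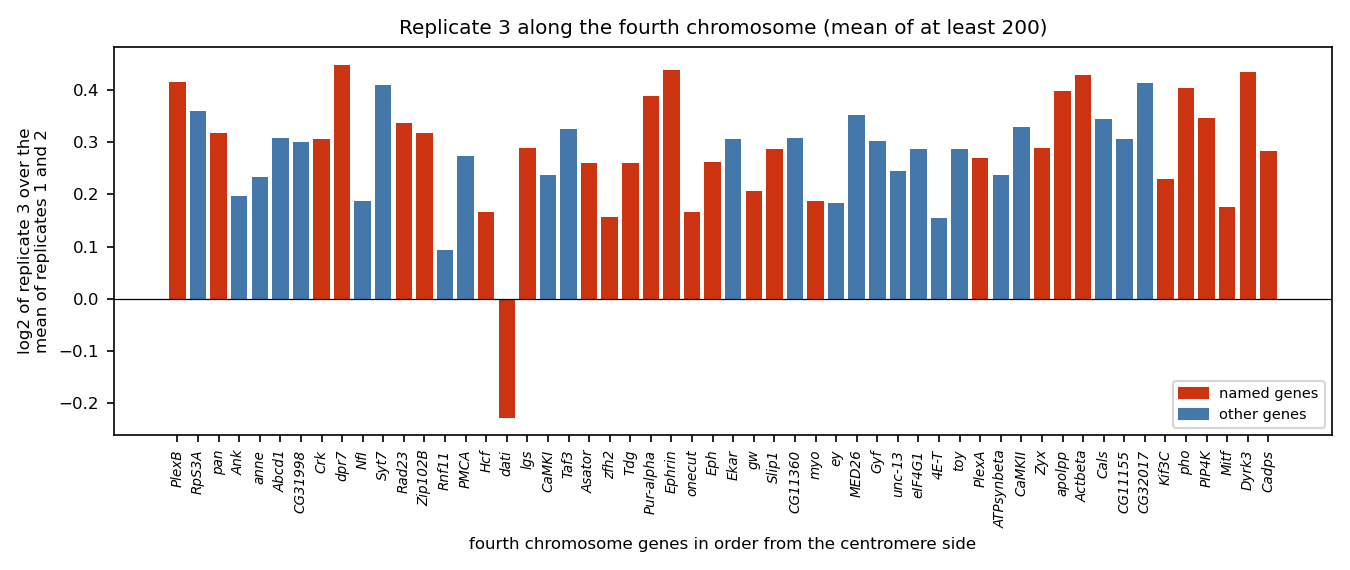
Log2 of replicate 3 over the average of the other libraries (y axis) for the 54 genes of chromosome 4 whose mean reached 200, in order from the centromere side (x axis), with the named genes in red and *Thd1* shown as *Tdg*. The bars lie between 0.09 and 0.45 over the whole order, except *dati* at −0.23.

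Other measures of the libraries are given beside this shift. The photoreceptor markers summed to 275895, 258992 and 273453 normalized counts in replicates 1, 2 and 3, and 2 of 8 were highest in replicate 3. By the chi-square test 7 of 8 differed between libraries (background 9.76% over all levels, and more at high levels). Glial markers, 5 of 5 with a row and none at 0, summed to 274, 284 and 255, and muscle markers to 464, 457 and 468. The 6 fat body genes other than *apolpp* summed to 2265, 2530.1 and 2115. The 4 other neuron markers with a row, of 5 listed, summed to 536, 478 and 561. The 12 mitochondrially encoded genes held 0.0824%, 0.0896% and 0.111% of normalized counts. The part of these in the shift was not tested. In these pooled nuclei, more cells of a type and more RNA per cell cannot be told apart.

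Genes listed for a link to heterochromatin or to chromosome 4 had a median of 28.6 normalized counts per kilobase of gene span. The median of the named genes was 85.0. All 15 listed had a row, 10 lay above the table median and 2 in the top 10%. *Pof*, whose protein paints this chromosome, had 51.4, 34.4 and 55.5 normalized counts, and *egg*, the H3 lysine 9 methyltransferase that acts on it, had 81.0, 85.1 and 78.0. The gene of HP1a had 37.3, 40.3 and 42.3, and *Su(var)3-9*, the methyltransferase of pericentric heterochromatin, had 24.4, 20.9 and 23.8. None of these 4 genes was called, at 14 to 63 reads per library, a depth at which a shift like that of the named genes can be missed. *Hmt4-20*, an H4 lysine 20 methyltransferase, had 1620 ± 85 (SD, n = 3). Of the 15, 1 was called, which at a background of 9.76% says nothing of these genes as a list. The called gene was *Su(var)2-HP2*, which encodes an HP1a partner, with 933, 881 and 1049.7 normalized counts (adjusted p 0.0391, chi-square test with Benjamini-Hochberg adjustment).

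The named genes act in pathways whose other parts lie elsewhere in the genome. In the Hedgehog pathway 5 of 6 listed genes had a row, none in the top 10%. The receptor gene *ptc* had 5.76 ± 3.04 and *smo* 103 ± 14 normalized counts (SD, n = 3), beside *ci* at 49.3 ± 5.8. In the Wnt pathway 9 of 10 listed genes lay above the table median and 3 were called (background 9.76% over all levels, and more at high levels). The kinase gene *sgg* had 10813 ± 967, *arm*, the fly beta-catenin, 1527 ± 56, and *pygo*, the partner of *lgs*, 153.3 ± 2.0. The semaphorin list held 6 genes, counting the effector *Mical*. The plexin ligand *Sema1a* had 1478 ± 184 and *Mical*, an enzyme that acts on actin below plexin, 2705 ± 94. *Sema2a*, a ligand of the *PlexB* receptor, had 34.8 ± 5.7 and *Sema2b* 187 ± 13.

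For the activin and BMP pathway 10 of 11 listed genes had a row and 8 lay above the table median. The activin receptor gene *babo* had 1842 ± 49 normalized counts (SD, n = 3) and its effector *Smox* 342 ± 39, beside the ligand *Actbeta* at 607 ± 117. *mav*, a ligand gene on the fourth chromosome that is not among the 35, had 172, 125.5 and 179.8. Of 9 genes that act with *pho*, 8 lay above the table median and 0 were called by the chi-square test with Benjamini-Hochberg adjustment (1 at an unadjusted p under 0.05), which at a background of 9.76% says nothing of these genes. The *pho* paralog *phol* had 177 ± 24 and *Sfmbt*, its partner in a repressive complex, 489 ± 32, beside *pho* at 809 ± 146. Of the 5 microRNA silencing genes with a row, *AGO1*, the Argonaute that *gw* binds, had 2255 ± 291, and *pAbp*, the poly(A)-binding protein gene, 1168 ± 124. Both were called by the chi-square test with Benjamini-Hochberg adjustment, the 2 calls in this list (background 9.76% over all levels). Both means lie between 1000 and 10000, where 40.2% of genes on arms other than chromosome 4 were called.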

How the data were processed

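The authors deposited 1 table of log2 values for nuclear RNA-seq, log2(normalized count + 1), per the file's values and name, which gives DESeq2. The submitters' processing notes name STAR, Trimmomatic and the builds dm6 and BDGP6, without roles; the counting program, strand setting and gene filter are not given in the sources used here. After the log2 was undone, 100% of values in each library were whole multiples of a single step (tolerance 0.001), which gave the reads. Symbols matched 7553 identifiers, and 49 had none. 0 columns of sample values lacked a sample. Positions and spans came from RefSeq's Release 6 annotation.

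With 1 RNA group, no test between groups was possible. The members, lists and tests were chosen with earlier results of these data known, and the replicate 3 ratio and the 200 minimum after seeing the values. Genes named are the 35 members, the fixed lists and the 5 other genes of chromosome 4 with the highest mean. Spread was tested by chi-square, Benjamini-Hochberg adjusted p under 0.05, and the test was also run on simulated counts. These held counting error alone and planted changes larger than the replicate 3 shift, so they do not check the p-values of that shift. Of the lists, *hh*, *Med*, *Act88F*, *TpnC4* and *Tdc2* had no row, *Dcp1* was ambiguous, and *CCR4* matched *twin*. Reads can include PCR copies, so tests cover counting error. Computation used scipy 1.17.1, numpy 2.4.6, pandas 2.3.3 and matplotlib 3.10.9 under Python 3.11.15.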

Additional observations from a re-analysis of the deposited data

How the results depend on the processing

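Of 65 alternatives over 12 results, none turned a direction, though counts and the share of normalized counts have no direction to turn. In all, 56 stayed within the spread between replicates, or within 1.5 times a count. For levels, ratios of related genes and the share, leaving out a library cannot move the mean beyond that spread. Those alternatives had to stay and are no check. The distance of the named genes from the table median went from 3.56 to 1.84 when only genes with spans of at least 5 kb were compared, and the distance per kilobase from 2.09 to 1.70 at a pseudocount of 10. Without division by length the log2 ratios became 1.90 for *PlexA* to *PlexB*, 0.85 for *Eph* to *Ephrin*, 1.52 for *Actbeta* to *myo* and 4.26 for *pan* to *lgs*, by the ratio of their spans. The share of normalized counts became 2.06% without the 100 highest genes, which hold much of the total, and the replicate 3 ratio became 0.21 under equal totals. With one replicate left out, the named genes called ran from 3, without replicate 3, to 23. The minimum span of 5 kb, the ratios without division by length and the replicate 3 ratio were chosen after seeing the data. Exon and coding lengths were not used here, and since every named gene had a row, none was set at 0. Depth limits *yellow-h*, *sv* and *ci*. No paired analysis was possible because RNA was measured in 1 group.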

Other observations

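Replicate 3 was also the highest library for nearly all genes near the centromere on 3 other arms, for 19 of the 20 nearest on 2L, 20 of 20 on 2R and 19 of 20 on 3L. It was highest for 13 of 20 on 3R and 10 of 20 on X. Over the rest of each arm the share was 49.2% on 2L, 46.8% on 2R, 45.9% on 3L, 43.3% on 3R and 32.5% on X. Among genes whose mean reached 200 normalized counts, the 20 nearest to the centromere-side end of 2R had a median log2 ratio of replicate 3 to the other libraries of 0.35, against 0.05 for the other 374 genes of that arm. On 2L the 20 nearest stood at 0.23 and the other 327 at 0.05, and on 3L they stood at 0.28 against 0.03 for 364. On 3R and X the 20 nearest stood at 0.07 and 0.06, against 0.03 and 0.01. Median spans of the nearest genes and the rest were 16.4 and 8.17 kb on 2R, 9.26 and 7.53 kb on 2L, and 9.34 and 8.91 kb on 3L, and the part of span was not tested.

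Genes known to reside in pericentric heterochromatin were looked up after this was seen. All 12 of 12 were highest in replicate 3 (background 47.1% of table genes whose mean reached 200, as it did for all of these but *RpL15*), with ratios of 0.20 to 0.48 and a median of 0.31, and 9 were called by the chi-square test with Benjamini-Hochberg adjustment (background 9.76% of all tested genes, and 40.2% of genes on arms other than chromosome 4 at means of 1000 to 10000). *rl*, the MAP kinase gene, had 1251.5, 1190.4 and 1701 normalized counts in replicates 1, 2 and 3 (adjusted p 9.23e-17). *Nipped-B*, the cohesin loader gene, had 2284, 2015 and 2709 (adjusted p 4.45e-15). *Snap25*, a synaptic SNARE gene, had 1570.5, 1461 and 1986 (adjusted p 2.25e-13). *lt*, the classical light gene, had 606, 654 and 727 and did not pass (adjusted p 0.104). The list was written from general knowledge with the fourth chromosome values known. Most of these genes lie on 2L, 2R and 3L and can be among the 20 nearest genes described above. The 12 of 12 is therefore not separate evidence.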
